A study of Mus musculus with 12 samples.

Results

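The mRNAs of 40 heat shock and unfolded protein response genes were followed in mouse lens cells (LCs) left on the lens capsule by cataract surgery. The members were chosen by symbol, as named components of the cytosolic heat shock response (15 genes), of the endoplasmic reticulum (ER) arm of the unfolded protein response (18 genes) and of the integrated stress response (7 genes). All 40 were found among the 45859 genes of the deposited tables.

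Proteins that misfold in the cytosol release heat shock factor 1, which binds heat shock elements in the promoters of chaperone genes and raises their transcription. Proteins that misfold in the ER are sensed by IRE1, ATF6 and PERK: IRE1 splices the mRNA of the transcription factor XBP1, ATF6 is cut to release a transcription factor, and PERK phosphorylates eIF2α, which slows translation but favours that of ATF4. Lens fiber cells hold crystallins at very high concentration for life, and the small heat shock proteins αA- and αB-crystallin are their main chaperones, so protein folding has long been studied in the lens.

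RNA was measured in LCs of WT mice (C57BL/6) and of β8ITG-cKO mice (mixed C57BL/6 and 129S1/Sv background), in which a floxed exon 4 of Itgb8, the gene of the β8 integrin subunit, was deleted by the MLR10-Cre transgene, which is active in all LCs of the lens. Mice of both genotypes were 2 months old and had their fiber cells removed through a corneal incision. Capsules with the attached LCs were collected at 0 h or at 24 h post cataract surgery (PCS), 5 capsules were pooled per library, and 3 libraries labelled as biological replicates were made in each of the 4 conditions. Genotype and strain background differed together, so their shares in a genotype difference cannot be told apart, and p-values measure the spread between these pooled libraries. Levels are FPKM, mapped fragments scaled by transcript length and by the size of the library, so levels can be set side by side between genes.

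Across the 12 libraries, 36.0% to 49.6% of the summed FPKM lay in 10 genes. The depths, read roughly from the ratios of low values between libraries, were 0.88 to 1.10 times the geometric mean of the 12. The number of reads behind an FPKM value is unknown, so no counting error is given. Itgb8 itself measured 7.26, 10.8 and 8.42 FPKM in WT at 0 h, 9.08, 8.38 and 9.58 FPKM in WT at 24 h, 6.83, 4.58 and 7.31 FPKM in β8ITG-cKO at 0 h and 9.28, 11.8 and 10.3 FPKM in β8ITG-cKO at 24 h; these gene-level values cover every exon and so do not check the deletion of exon 4. Of the lens lists, the summed FPKM of 8 epithelial markers was 10300 to 13600 in WT at 0 h, 4270 to 5540 in WT at 24 h, 12800 to 14900 in β8ITG-cKO at 0 h and 3210 to 4100 in β8ITG-cKO at 24 h, and that of 9 fiber markers was 28400 to 41900, 10700 to 14600, 32900 to 40300 and 6750 to 9020 in the same order. The first sum was mostly Cryab, and the second mostly Crybb2. Of the 8 epithelial markers, 1 (Cdh1) rose and 4 fell over time in WT, and none rose and 6 fell in β8ITG-cKO. Of the 9 fiber markers, 8 fell in WT and 9 in β8ITG-cKO. Retinal markers differed between libraries: the summed FPKM of 10 rod and retina genes was 140 to 1180 in WT at 0 h, 74.7 to 141 in WT at 24 h, 183 to 336 in β8ITG-cKO at 0 h and 870 to 1020 in β8ITG-cKO at 24 h, with none of the 10 at 0 in any group. The sum of 8 macrophage markers was 9.24 to 18.4 at 0 h and 33.4 to 51.8 at 24 h over both genotypes. Of the 7 tested, 2 (Cd68 and Itgam) rose in WT and 4 (also Lyz2 and C1qa) in β8ITG-cKO, and the other 5 in WT had log2 changes of -0.40 to 1.13. The sum of 4 corneal epithelial markers was nearly all Aldh3a1, which measured 535 to 911 FPKM in β8ITG-cKO at 0 h and 208 to 264 in WT at 0 h, while Krt5, Krt12 and Krt14 were at most 0.45 FPKM in the former and at most 3.17 in the latter. The part of these lists in the values below was not tested.

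Promoter sequences are shown first because each arm has a known response element through which its transcription factors act. RefSeq windows on GRCm38.p6, of 250 bases before the start of the gene and 50 bases from it, matched 34 of the 40 members. The other 6 were Atf6, Manf, Hsp90aa1, Hsp90ab1, Hsf1 and Hspa8. Each window was searched on both strands for the heat shock element GAANNTTCNNGAA, the ER stress response element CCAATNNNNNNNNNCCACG, its second form (ATTGG and CCACG with 1 base between) and the CEBP-ATF response element TGATGNAA, where N is any base. In the sequences below, the 250 bases before the gene start are printed 5′ to 3′ on the strand of the gene, and the letters fixed by these motifs are in capitals, on whichever strand they were read. Positions count from 0 at the first base of the gene. Hspa5, Hsp90b1 and Calr carry the ER stress response element, Hspe1 carries a pair of overlapping heat shock elements, and Atf3 and Asns carry the CEBP-ATF response element.
Hspa5, chr2:34771840-34772089, plus strand: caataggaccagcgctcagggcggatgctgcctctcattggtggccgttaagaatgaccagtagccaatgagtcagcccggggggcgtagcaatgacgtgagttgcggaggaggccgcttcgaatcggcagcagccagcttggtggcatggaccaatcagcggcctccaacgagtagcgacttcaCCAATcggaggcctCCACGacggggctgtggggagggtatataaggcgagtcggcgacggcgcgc
Hsp90b1, chr10:86705445-86705694, minus strand: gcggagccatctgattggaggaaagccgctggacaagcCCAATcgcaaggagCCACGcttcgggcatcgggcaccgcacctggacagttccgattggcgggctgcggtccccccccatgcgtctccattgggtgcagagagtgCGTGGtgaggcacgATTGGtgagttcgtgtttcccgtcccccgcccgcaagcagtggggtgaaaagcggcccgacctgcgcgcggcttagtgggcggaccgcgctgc
Calr, chr8:84846932-84847181, minus strand: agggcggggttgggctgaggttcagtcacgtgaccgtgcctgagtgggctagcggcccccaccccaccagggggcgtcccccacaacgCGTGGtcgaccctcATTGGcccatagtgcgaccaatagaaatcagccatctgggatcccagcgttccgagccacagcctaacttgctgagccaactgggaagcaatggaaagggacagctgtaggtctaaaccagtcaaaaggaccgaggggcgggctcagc
Hspe1, chr1:55087898-55088147, plus strand: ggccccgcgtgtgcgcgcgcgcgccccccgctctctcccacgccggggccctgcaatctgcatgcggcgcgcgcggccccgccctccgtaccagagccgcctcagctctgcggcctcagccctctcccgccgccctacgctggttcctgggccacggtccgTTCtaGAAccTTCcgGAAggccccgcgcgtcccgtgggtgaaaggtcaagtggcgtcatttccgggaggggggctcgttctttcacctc
Atf3, chr1:191183334-191183583, minus strand: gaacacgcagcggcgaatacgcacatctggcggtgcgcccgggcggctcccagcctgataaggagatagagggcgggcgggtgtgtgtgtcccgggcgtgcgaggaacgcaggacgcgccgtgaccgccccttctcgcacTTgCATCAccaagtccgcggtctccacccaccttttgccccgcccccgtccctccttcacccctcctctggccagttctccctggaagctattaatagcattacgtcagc
Asns, chr6:7693210-7693459, minus strand: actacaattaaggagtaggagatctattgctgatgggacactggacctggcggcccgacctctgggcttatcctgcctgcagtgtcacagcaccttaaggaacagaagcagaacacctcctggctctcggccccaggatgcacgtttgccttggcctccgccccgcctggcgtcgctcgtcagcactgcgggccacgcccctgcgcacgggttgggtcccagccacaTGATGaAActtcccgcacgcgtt

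The ER stress response element was found in 7 of the 16 ER members with a window and in 0.137% of 27025 genes. In the 4 of them not printed above it read as follows.
Canx, from -145 to -127: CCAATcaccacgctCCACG
Pdia6, from -98 to -80: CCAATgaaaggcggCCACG
Dnajc3, from -105 to -87: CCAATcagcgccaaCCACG
Creld2, from -126 to -108, on the reverse strand: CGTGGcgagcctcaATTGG

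Its second form was found in 0.0444% of genes, among them Herpud1 (ATTGGgCCACG, from -52 to -42) and Dnajb11 (ATTGGcCCACG, from 7 to 17). The heat shock element was found in 3 of 11 heat shock members with a window and in 0.662% of genes. Hspd1 and Hspe1 lie head to head on chromosome 1, so their windows hold the same 2 overlapping matches, read on opposite strands (Hspd1, TTCcgGAAggTTC from -144 to -132 and GAAggTTCtaGAA from -139 to -127). Hsph1 held TTCtgGAAagTTC past its start, both from 15 to 27 and from 36 to 48. The CEBP-ATF response element, a short motif found in 4.51% of genes, was in 4 of the 7 integrated stress members, Atf3, Asns, Trib3 and Chac1, and in Herpud1. A match describes these letters and is not evidence of binding.

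After surgery, 6 of 8 ER chaperones rose in WT and 7 of 8 in β8ITG-cKO, and 4 of 7 integrated stress members rose in WT and all 7 in β8ITG-cKO. In WT, 22 of the 40 members rose from 0 h to 24 h PCS and none fell, by limma-trend on log2(FPKM + 1) with a Benjamini-Hochberg adjusted p of at most 0.05; 20.9% of all genes tested rose and 8.81% fell. In β8ITG-cKO, 29 of the 40 rose and none fell, beside 35.4% and 10.7% of all genes. The median log2 change of the members was 0.85 in WT and 0.76 in β8ITG-cKO, against medians over all genes of 0.16 and 0.23. In bulk RNA, fewer cells of a type and less RNA per cell cannot be told apart.

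Because the median gene was higher at 24 h, the libraries were also rescaled to the same median. Over all genes, rescaling changed 3165 rises and 1335 falls into 2199 and 2447 in WT, and 5394 and 1636 into 3217 and 3008 in β8ITG-cKO. Among the members it left 19 rises and 1 fall, of Dnajb4, in WT, and 22 rises and no fall in β8ITG-cKO, with medians of 0.59 and 0.48 where the median over all genes was near 0. All 3 libraries at 24 h lay above all 3 at 0 h for 27 members in WT and 34 in β8ITG-cKO, beside 31.3% and 42.9% of all genes; none lay wholly below, beside 15.6% and 14.0%. Under the study's own criteria added to the test (a fold of at least 2, a difference of at least 2 FPKM and a level of at least 2 FPKM), 18 members passed in WT, beside 14.3% of all genes, and 14 in β8ITG-cKO, beside 15.1%.

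**Figure D1:**
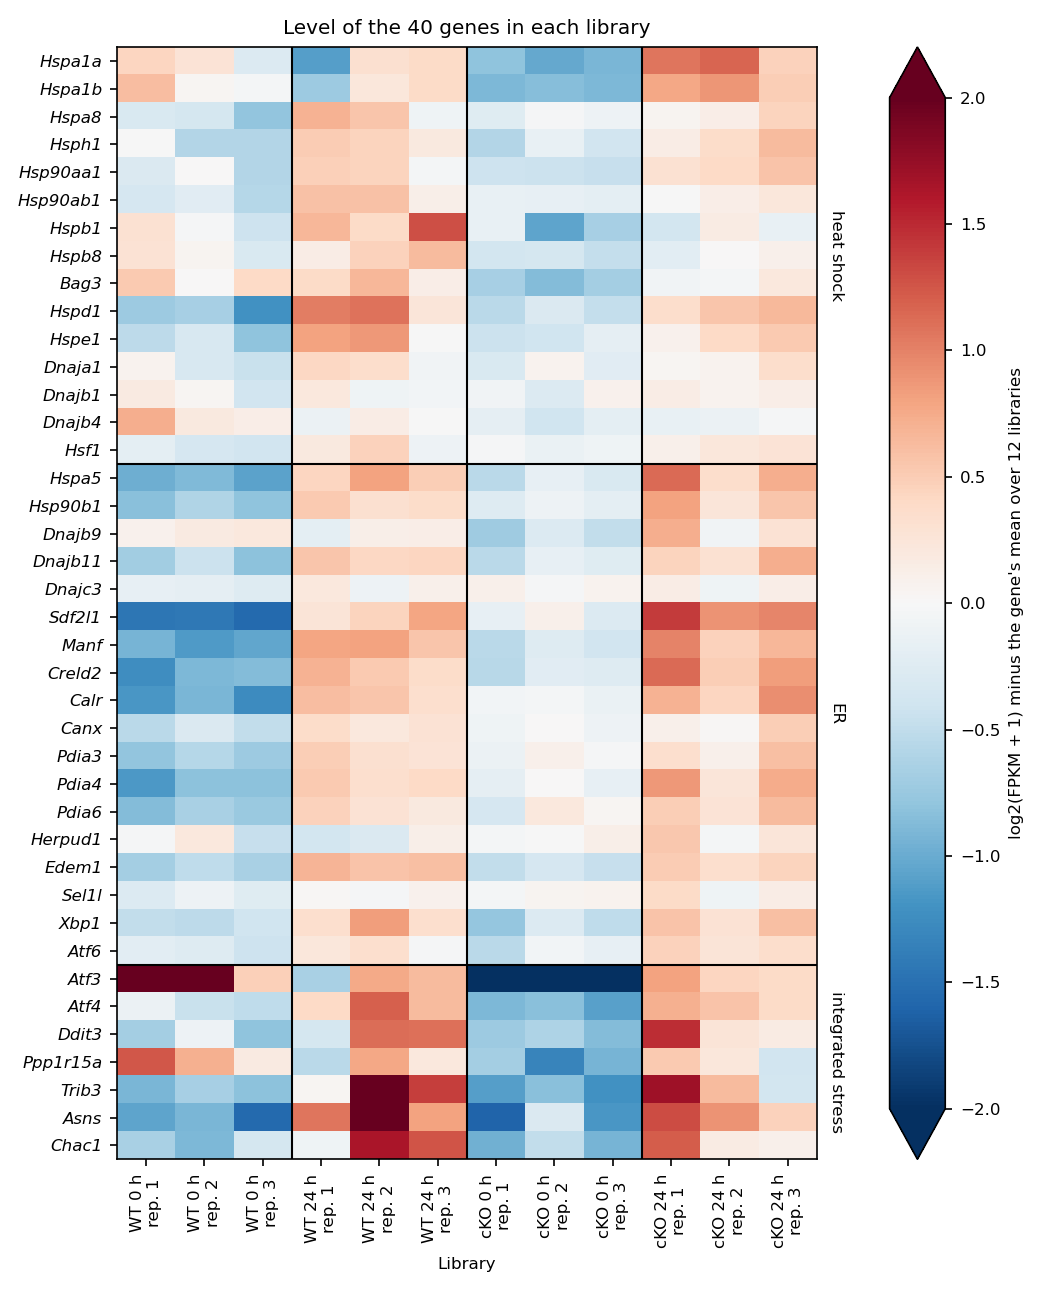
Heat map of the 40 genes (rows, in 3 groups) in the 12 libraries (columns, in 4 groups; cKO is β8ITG-cKO). Colour gives log2(FPKM + 1) minus the gene's mean over the 12 libraries, cut at 2 either way. Most ER members are blue in WT at 0 h, paler in β8ITG-cKO at 0 h and red at 24 h in both genotypes, while Bag3, Atf3 and Ppp1r15a are bluest in β8ITG-cKO at 0 h.

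**Figure D2:**
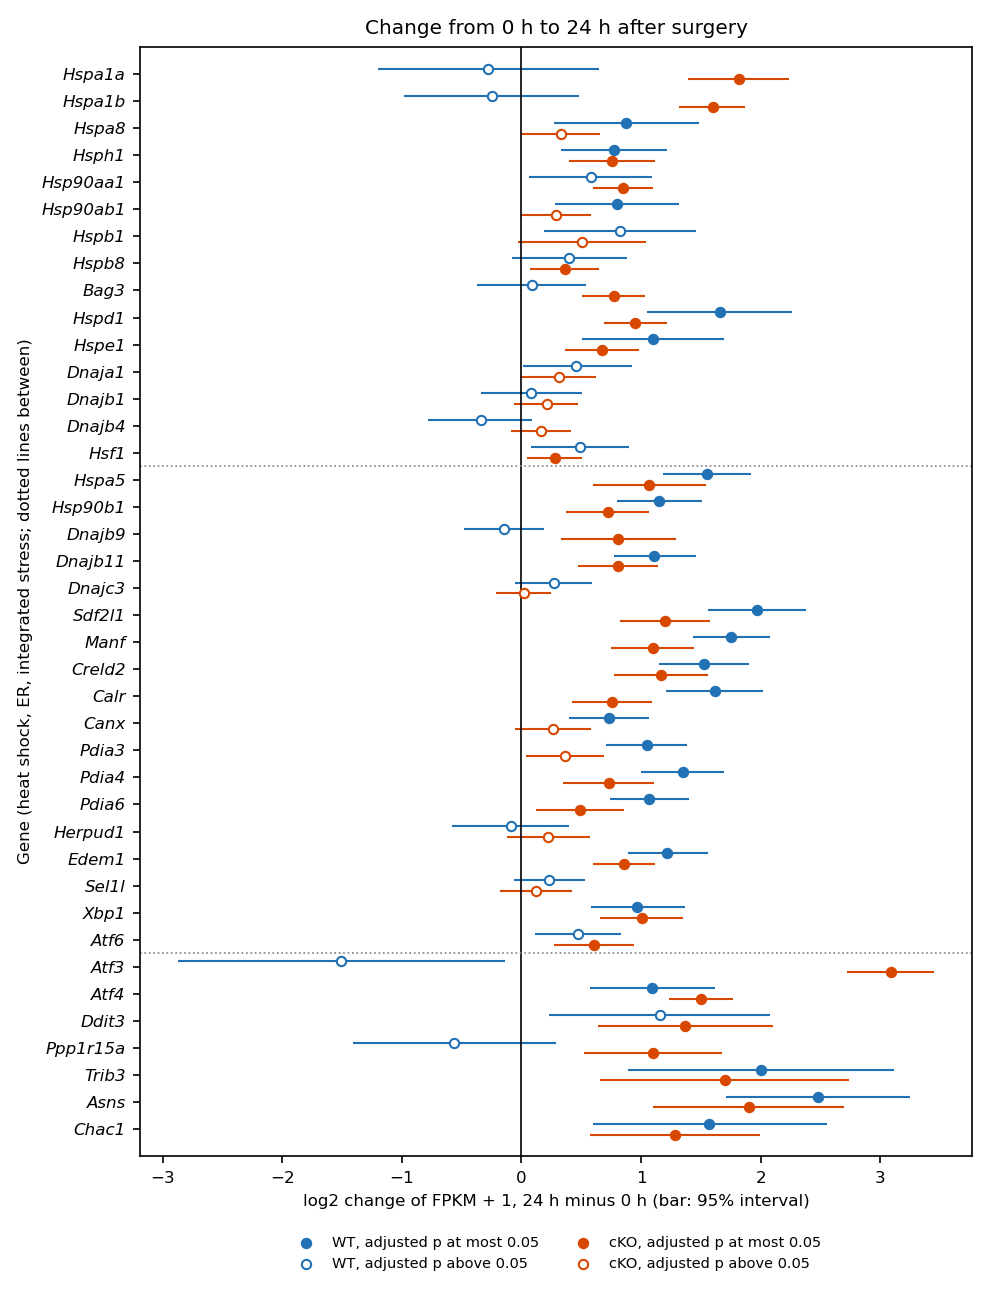
Log2 change of FPKM + 1 from 0 h to 24 h PCS (horizontal axis) for each gene (vertical axis), in WT (blue) and in β8ITG-cKO (orange). Points are the fitted change with its 95% interval and are filled where the adjusted p was at most 0.05. Filled points lie to the right of 0 in both genotypes, 22 in WT and 29 in β8ITG-cKO.

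Of the ER chaperones, Dnajc3 passed in neither genotype and Dnajb9 in β8ITG-cKO alone. Hspa5 (chr2:34772090-34800164), which encodes BiP, the HSP70 of the ER lumen, measured 72.4, 77.1 and 68.3 FPKM in WT at 0 h, 195, 251 and 202 FPKM in WT at 24 h, 98.99, 129 and 116 FPKM in β8ITG-cKO at 0 h and 318, 183 and 239 FPKM in β8ITG-cKO at 24 h. In each genotype the 24 h libraries were all higher than those at 0 h, and the β8ITG-cKO libraries at 0 h lay above those of WT. Hspa5 rose by 1.55 on the log2 scale (SE 0.16, limma adjusted p = 0.000736) in WT and by 1.07 on the log2 scale (SE 0.20, limma adjusted p = 0.0038) in β8ITG-cKO.

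Hsp90b1 (chr10:86690841-86705444), the gene of the ER HSP90 protein GRP94, measured 125, 147 and 129 FPKM in WT at 0 h, 323, 282 and 292 FPKM in WT at 24 h, 187, 209 and 198 FPKM in β8ITG-cKO at 0 h and 394, 267 and 330.0 FPKM in β8ITG-cKO at 24 h. It had the same order of groups as Hspa5 and rose by 1.15 on the log2 scale (SE 0.15, limma adjusted p = 0.00205) in WT and by 0.72 on the log2 scale (SE 0.15, limma adjusted p = 0.00644) in β8ITG-cKO, the second of which was lost on rescaling. Dnajb11 (chr16:22857845-22899451), a J protein that works with BiP, measured 17.7, 21.6 and 16.2 FPKM in WT at 0 h, 43.6, 39.5 and 39.6 FPKM in WT at 24 h, 19.9, 25.96 and 24.6 FPKM in β8ITG-cKO at 0 h and 40.4, 36.3 and 49.2 FPKM in β8ITG-cKO at 24 h. Its rises were 1.11 on the log2 scale (SE 0.15, limma adjusted p = 0.00203) in WT and 0.81 on the log2 scale (SE 0.14, limma adjusted p = 0.00297) in β8ITG-cKO, with no overlap between times in either genotype.

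Sdf2l1 (chr16:17130138-17132383), a part of the BiP and DNAJB11 chaperone complex, measured 1.68, 1.7 and 1.49 FPKM in WT at 0 h, 7.74, 8.88 and 11.6 FPKM in WT at 24 h, 5.51, 6.83 and 5.05 FPKM in β8ITG-cKO at 0 h and 18.3, 12.6 and 13.3 FPKM in β8ITG-cKO at 24 h. The 3 WT libraries at 0 h were the lowest of the 12, and the groups at 0 h and 24 h did not overlap in either genotype. Of the ER members it had the largest fitted rise in both genotypes, 1.97 on the log2 scale (SE 0.18, limma adjusted p = 0.000455) in WT and 1.20 on the log2 scale (SE 0.16, limma adjusted p = 0.000825) in β8ITG-cKO.

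Manf (chr9:106887415-106891938), a secreted protein retained in the ER through BiP, measured 7.71, 6.55 and 7.0 FPKM in WT at 0 h, 27.6, 27.9 and 23.3 FPKM in WT at 24 h, 10.4, 12.8 and 11.7 FPKM in β8ITG-cKO at 0 h and 31.9, 21.7 and 25.1 FPKM in β8ITG-cKO at 24 h. Creld2 (chr15:88819646-88826681), an ER-resident protein induced by misfolding, measured 7.11, 9.31 and 9.56 FPKM in WT at 0 h, 30.02, 26.5 and 23.8 FPKM in WT at 24 h, 12.1, 15.3 and 15.02 FPKM in β8ITG-cKO at 0 h and 41.05, 25.9 and 33.1 FPKM in β8ITG-cKO at 24 h. Both were lowest in WT at 0 h and highest at 24 h, with β8ITG-cKO at 0 h between. Manf rose by 1.75 on the log2 scale (SE 0.14, limma adjusted p = 0.000291) in WT and by 1.10 on the log2 scale (SE 0.15, limma adjusted p = 0.00088) in β8ITG-cKO. The rises of Creld2 were 1.53 on the log2 scale (SE 0.16, limma adjusted p = 0.000837) in WT and 1.17 on the log2 scale (SE 0.17, limma adjusted p = 0.00122) in β8ITG-cKO.

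Dnajb9 (chr12:44205897-44210068), a J protein that brings BiP to IRE1, did not follow them. Its libraries measured 15.3, 16.3 and 16.8 FPKM in WT at 0 h, 12.3, 15.5 and 15.7 FPKM in WT at 24 h, 8.3, 11.7 and 9.85 FPKM in β8ITG-cKO at 0 h and 24.4, 13.5 and 17.6 FPKM in β8ITG-cKO at 24 h. The WT libraries of both times overlapped, and those of β8ITG-cKO at 0 h lay below every other library. Its log2 change in WT was -0.15 (95% interval -0.48 to 0.19), while in β8ITG-cKO it rose by 0.81 on the log2 scale (SE 0.21, limma adjusted p = 0.015), a call lost on rescaling. Dnajc3, which encodes the PERK inhibitor p58IPK, lay between 14.01 and 19.9 FPKM in all 12 libraries and passed the test in no comparison.

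The ER lectins and disulfide isomerases, which fold glycoproteins and form their disulfide bonds, were 5 in number, and all 5 rose in WT, beside 20.9% of all genes. Calr (chr8:84842088-84846931), the gene of the lectin calreticulin, measured 137, 164 and 129 FPKM in WT at 0 h, 475, 457 and 391 FPKM in WT at 24 h, 299.6, 302 and 282 FPKM in β8ITG-cKO at 0 h and 500.2, 419 and 589.9 FPKM in β8ITG-cKO at 24 h. At 0 h every β8ITG-cKO library was above every WT library, and at 24 h the genotypes overlapped. Calr rose by 1.62 on the log2 scale (SE 0.17, limma adjusted p = 0.000875) in WT and by 0.76 on the log2 scale (SE 0.14, limma adjusted p = 0.00407) in β8ITG-cKO.

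Canx (chr11:50293957-50325673), the gene of the membrane-bound lectin calnexin, measured 92.1, 109.7 and 95.01 FPKM in WT at 0 h, 174, 156 and 165 FPKM in WT at 24 h, 127, 136 and 125 FPKM in β8ITG-cKO at 0 h and 145, 136 and 189 FPKM in β8ITG-cKO at 24 h. Its rise in WT was 0.73 on the log2 scale (SE 0.15, limma adjusted p = 0.00893), a call lost without WT 0 h replicate 1, and in β8ITG-cKO its log2 change of 0.26 (95% interval -0.05 to 0.58) did not pass. Pdia3 (chr2:121393024-121438687), the isomerase that works with both lectins, measured 63.4, 74.2 and 66.4 FPKM in WT at 0 h, 155, 137 and 133 FPKM in WT at 24 h, 102, 118 and 108 FPKM in β8ITG-cKO at 0 h and 140.0, 118 and 168 FPKM in β8ITG-cKO at 24 h. In WT the times were far apart and Pdia3 rose by 1.05 on the log2 scale (SE 0.14, limma adjusted p = 0.00228), while in β8ITG-cKO the lowest 24 h library was barely above the highest at 0 h and the log2 change of 0.36 (95% interval 0.04 to 0.69) did not pass after adjustment (limma adjusted p = 0.0675).

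Pdia4 (chr6:47796088-47813512) and Pdia6 (chr12:17266595-17325386) encode further isomerases of the ER lumen. Pdia4 measured 41.4, 51.7 and 52.1 FPKM in WT at 0 h, 133, 117 and 122 FPKM in WT at 24 h, 81.9, 92.8 and 82.8 FPKM in β8ITG-cKO at 0 h and 169, 109.9 and 156 FPKM in β8ITG-cKO at 24 h. Pdia6 measured 41.1, 47.7 and 44.8 FPKM in WT at 0 h, 104, 92.4 and 86.99 FPKM in WT at 24 h, 59.9, 87.9 and 77.2 FPKM in β8ITG-cKO at 0 h and 106, 91.1 and 117 FPKM in β8ITG-cKO at 24 h. For both, WT at 0 h was the lowest group and the 24 h groups overlapped each other. Pdia4 rose by 1.35 on the log2 scale (SE 0.15, limma adjusted p = 0.00103) in WT and by 0.73 on the log2 scale (SE 0.16, limma adjusted p = 0.00861) in β8ITG-cKO. The rises of Pdia6 were 1.07 on the log2 scale (SE 0.14, limma adjusted p = 0.00197) and 0.49 on the log2 scale (SE 0.16, limma adjusted p = 0.0384). The β8ITG-cKO rises of both were lost on rescaling, and that of Pdia6 held in only 5 of 12 alternative fits.

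Edem1 (chr6:108828558-108859356), a lectin that hands misfolded glycoproteins to ER-associated degradation, measured 1.55, 1.85 and 1.59 FPKM in WT at 0 h, 5.48, 5.02 and 5.14 FPKM in WT at 24 h, 1.89, 2.23 and 1.96 FPKM in β8ITG-cKO at 0 h and 4.77, 4.13 and 4.56 FPKM in β8ITG-cKO at 24 h. The times did not overlap in either genotype, and Edem1 rose by 1.22 on the log2 scale (SE 0.14, limma adjusted p = 0.00134) in WT and by 0.86 on the log2 scale (SE 0.11, limma adjusted p = 0.000719) in β8ITG-cKO. The other members of this pathway changed little. Herpud1 (chr8:94386138-94395366), a membrane scaffold of the degradation complex, measured 18.8, 22.4 and 13.7 FPKM in WT at 0 h, 14.7, 15.6 and 20.9 FPKM in WT at 24 h, 18.6, 18.97 and 20.9 FPKM in β8ITG-cKO at 0 h and 28.2, 18.6 and 22.8 FPKM in β8ITG-cKO at 24 h, with overlap between all groups and no call in any comparison. Sel1l, the partner of the ubiquitin ligase HRD1, lay between 12.5 and 20.3 FPKM and passed in no comparison.

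Xbp1 (chr11:5520641-5525993), whose mRNA IRE1 splices, measured 10.8, 10.5 and 11.6 FPKM in WT at 0 h, 19.8, 28.5 and 19.96 FPKM in WT at 24 h, 8.7, 12.6 and 10.6 FPKM in β8ITG-cKO at 0 h and 23.6, 19.2 and 24.1 FPKM in β8ITG-cKO at 24 h. The 2 genotypes overlapped at both times, and Xbp1 rose by 0.97 on the log2 scale (SE 0.17, limma adjusted p = 0.00559) in WT and by 1.01 on the log2 scale (SE 0.15, limma adjusted p = 0.00124) in β8ITG-cKO. These gene-level values do not separate spliced from unspliced mRNA. Atf6 (chr1:170704457-170867787) measured 5.12, 4.92 and 4.32 FPKM in WT at 0 h, 7.27, 7.92 and 5.96 FPKM in WT at 24 h, 3.88, 5.83 and 5.31 FPKM in β8ITG-cKO at 0 h and 8.77, 7.45 and 7.98 FPKM in β8ITG-cKO at 24 h. It rose in β8ITG-cKO, by 0.61 on the log2 scale (SE 0.15, limma adjusted p = 0.0111), a call lost on rescaling, and its log2 change of 0.47 in WT had a limma adjusted p of 0.0547. In all, 13 of the 18 ER members rose in each genotype, beside 20.9% of all genes in WT and 35.4% in β8ITG-cKO. Their median log2 changes were 1.09 in WT and 0.74 in β8ITG-cKO, against 0.16 and 0.23 over all genes. After rescaling 13 rose in WT, while in β8ITG-cKO Atf6, Dnajb9, Hsp90b1, Pdia4 and Pdia6 lost the call.

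The integrated stress members had the widest spread between libraries of a group. Atf4 (chr15:80255184-80257545), the transcription factor at the centre of the response, measured 62.5, 49.8 and 47.8 FPKM in WT at 0 h, 89.6, 157 and 106 FPKM in WT at 24 h, 35.9, 37.7 and 31.6 FPKM in β8ITG-cKO at 0 h and 112, 102 and 89.3 FPKM in β8ITG-cKO at 24 h. All 24 h libraries were above all 0 h libraries, and Atf4 rose by 1.09 on the log2 scale (SE 0.23, limma adjusted p = 0.0107) in WT and by 1.5 on the log2 scale (SE 0.12, limma adjusted p = 6.54e-05) in β8ITG-cKO. Asns (chr6:7675165-7693182), which encodes asparagine synthetase and is a classical ATF4 target, measured 0.98, 1.16 and 0.39 FPKM in WT at 0 h, 7.6, 15.8 and 6.15 FPKM in WT at 24 h, 0.35, 2.36 and 0.83 FPKM in β8ITG-cKO at 0 h and 9.12, 6.61 and 4.62 FPKM in β8ITG-cKO at 24 h. It had the largest fitted rise of all members in WT, 2.48 on the log2 scale (SE 0.33, limma adjusted p = 0.00205), and rose by 1.90 on the log2 scale (SE 0.34, limma adjusted p = 0.00319) in β8ITG-cKO.

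Trib3 (chr2:152337425-152344060), a pseudokinase that restrains ATF4, measured 0.25, 0.49 and 0.33 FPKM in WT at 0 h, 1.41, 9.77 and 5.12 FPKM in WT at 24 h, 0.1, 0.32 and 0.02 FPKM in β8ITG-cKO at 0 h and 6.6, 2.65 and 0.83 FPKM in β8ITG-cKO at 24 h. Chac1 (chr2:119351242-119354326), an enzyme that degrades glutathione, measured 0.24, 0.04 and 0.52 FPKM in WT at 0 h, 0.83, 5.06 and 3.65 FPKM in WT at 24 h, 0, 0.39 and 0.02 FPKM in β8ITG-cKO at 0 h and 3.51, 1.19 and 1.08 FPKM in β8ITG-cKO at 24 h. Both were near 0 at 0 h and differed several-fold between libraries of a group at 24 h. Trib3 rose by 2.00 on the log2 scale (SE 0.48, limma adjusted p = 0.018) in WT and by 1.70 on the log2 scale (SE 0.45, limma adjusted p = 0.0167) in β8ITG-cKO, and Chac1 by 1.57 on the log2 scale (SE 0.42, limma adjusted p = 0.0271) and 1.28 on the log2 scale (SE 0.31, limma adjusted p = 0.011), all on a scale that understates the change of genes this low. Of 12 alternative fits, the Chac1 call held in 5 in WT and 11 in β8ITG-cKO, and the Trib3 call in 9 in each genotype. Fits in which the gene was under the filter count as lost.

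Ddit3 (chr10:127290793-127311786), the gene of the pro-apoptotic factor CHOP, measured 12.4, 19.0 and 11.2 FPKM in WT at 0 h, 15.9, 45.6 and 45.05 FPKM in WT at 24 h, 11.98, 13.02 and 10.7 FPKM in β8ITG-cKO at 0 h and 58.3, 24.7 and 23.1 FPKM in β8ITG-cKO at 24 h. In WT the 24 h library of replicate 1 lay among those at 0 h, and the log2 change of 1.16 (95% interval 0.23 to 2.08) did not pass (limma adjusted p = 0.0633). Without that library it was 1.64 (limma adjusted p = 0.00518), while leaving out any other single library did not make Ddit3 pass in WT. Ddit3 also passed in WT with all 12 libraries in 1 fit (limma adjusted p = 0.0383). With the replicate number as a block it passed too (limma adjusted p = 0.0446). In β8ITG-cKO all 24 h libraries were above those at 0 h, and Ddit3 rose by 1.37 on the log2 scale (SE 0.32, limma adjusted p = 0.0095).

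Atf3 and Ppp1r15a did not pass in WT. Atf3 (chr1:191170296-191183333), a transcription factor that responds within an hour to many stresses, measured 46.7, 28.6 and 8.99 FPKM in WT at 0 h, 3.58, 11.1 and 10.1 FPKM in WT at 24 h, 0.38, 0.12 and 0.17 FPKM in β8ITG-cKO at 0 h and 11.5, 8.64 and 8.31 FPKM in β8ITG-cKO at 24 h. The WT libraries at 0 h ranged from 8.99 to 46.7 FPKM and overlapped those at 24 h, whereas no β8ITG-cKO library at 0 h reached more than 0.38 FPKM. Its log2 change was -1.51 (95% interval -2.87 to -0.14, limma adjusted p = 0.0906) in WT, and without WT 0 h replicate 3 it fell by 2.14 (limma adjusted p = 0.021). Leaving out any other single library did not make Atf3 pass in WT. With all 12 libraries in 1 fit, Atf3 passed in WT at the same log2 change of -1.51 (limma adjusted p = 0.0268). In β8ITG-cKO it rose by 3.09 on the log2 scale (SE 0.16, limma adjusted p = 1.28e-05), the largest fitted change of any member there.

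Ppp1r15a (chr7:45473563-45526268), which encodes GADD34, the phosphatase subunit that restores translation, measured 37.2, 25.5 and 17.4 FPKM in WT at 0 h, 10.2, 26.7 and 17.7 FPKM in WT at 24 h, 9.12, 5.47 and 7.52 FPKM in β8ITG-cKO at 0 h and 22.3, 17.9 and 11.4 FPKM in β8ITG-cKO at 24 h. The groups overlapped in WT, with a log2 change of -0.56 (95% interval -1.41 to 0.29), while in β8ITG-cKO Ppp1r15a rose by 1.10 on the log2 scale (SE 0.25, limma adjusted p = 0.00873). All 7 integrated stress members thus rose in β8ITG-cKO, beside 35.4% of all genes, and 4 of 7 in WT, beside 20.9%.

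**Figure D3:**
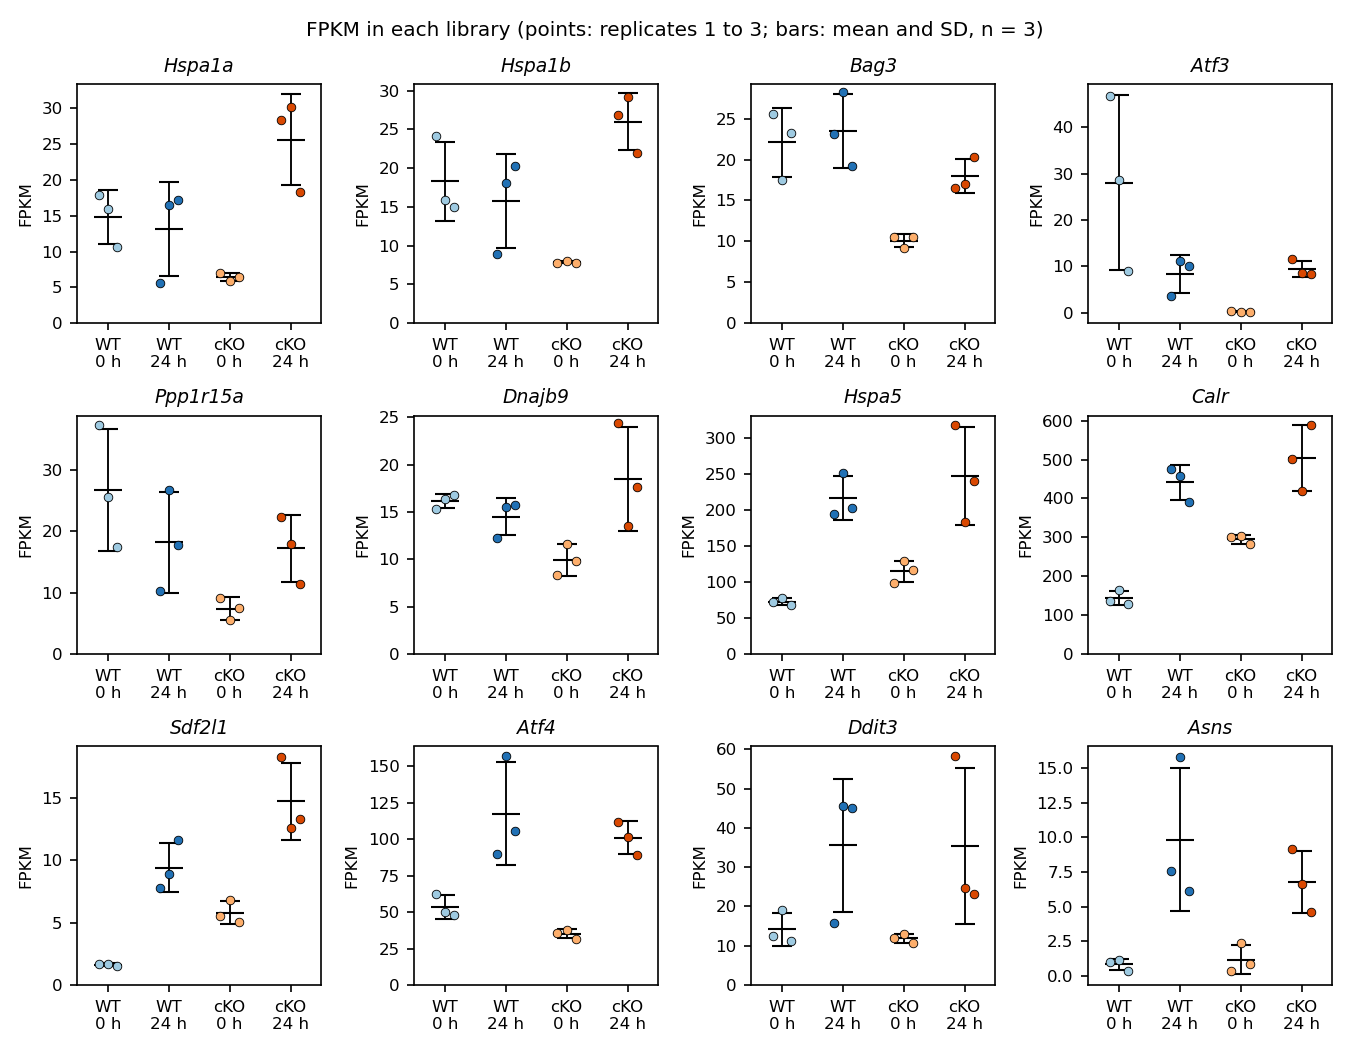
FPKM (vertical axes, linear, each with its own scale) of 12 members in each library. Points are the 3 replicates of a group and bars are the mean and SD (n = 3). The means of Hspa1a, Hspa1b, Bag3, Atf3, Ppp1r15a and Dnajb9 are lowest in β8ITG-cKO at 0 h, while those of Hspa5, Calr and Sdf2l1 are lowest in WT at 0 h.

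The mitochondrial chaperonin, which folds imported proteins in the matrix, rose in both genotypes. Its subunits Hspd1 (HSP60) and Hspe1 (HSP10) share one deposited locus (chr1:55077834-55091317). Hspd1 measured 16.98, 17.7 and 11.8 FPKM in WT at 0 h, 59.7, 62.5 and 34.2 FPKM in WT at 24 h, 19.6, 23.5 and 20.3 FPKM in β8ITG-cKO at 0 h and 37.2, 42.7 and 45.7 FPKM in β8ITG-cKO at 24 h. Hspe1 measured 30.02, 34.4 and 24.4 FPKM in WT at 0 h, 76.9, 79.7 and 43.1 FPKM in WT at 24 h, 31.8, 32.8 and 38.1 FPKM in β8ITG-cKO at 0 h and 45.95, 57.2 and 62.9 FPKM in β8ITG-cKO at 24 h. No library at 24 h overlapped those at 0 h, and the third WT library at 24 h was well below the other 2. Hspd1 rose by 1.66 on the log2 scale (SE 0.26, limma adjusted p = 0.00375) in WT and by 0.95 on the log2 scale (SE 0.11, limma adjusted p = 0.000468) in β8ITG-cKO. The rises of Hspe1 were 1.10 on the log2 scale (SE 0.26, limma adjusted p = 0.0161) and 0.67 on the log2 scale (SE 0.14, limma adjusted p = 0.00527), and the WT call held in 8 of 12 alternative fits.

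The abundant constitutive chaperones moved less than the mitochondrial chaperonin in both genotypes. Hspa8 (chr9:40801273-40805199), the cytosolic HSP70 of unstressed cells, measured 389, 378 and 281 FPKM in WT at 0 h, 785, 712 and 457 FPKM in WT at 24 h, 411, 477 and 449.7 FPKM in β8ITG-cKO at 0 h and 504, 533 and 658 FPKM in β8ITG-cKO at 24 h. Hsp90ab1 (chr17:45567778-45573261), the constitutive cytosolic HSP90, measured 611, 661 and 519 FPKM in WT at 0 h, 1156, 1152 and 836 FPKM in WT at 24 h, 692, 690.4 and 671 FPKM in β8ITG-cKO at 0 h and 767, 846 and 902 FPKM in β8ITG-cKO at 24 h and was the most abundant member in every library. Each had all its 24 h libraries above those at 0 h in both genotypes. In WT, Hspa8 rose by 0.87 on the log2 scale (SE 0.26, limma adjusted p = 0.0386) and Hsp90ab1 by 0.80 on the log2 scale (SE 0.22, limma adjusted p = 0.0319). Both calls were lost on rescaling, and each held in only 5 of 12 alternative fits. In β8ITG-cKO their log2 changes of 0.33 (95% interval 0.00 to 0.66) and 0.29 (95% interval 0.00 to 0.58) did not pass. Processed pseudogenes of such chaperones exist, and how reads shared with them were assigned was not tested.

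Hsp90aa1 (chr12:110691036-110696395), the inducible cytosolic HSP90, measured 183, 227 and 149.8 FPKM in WT at 0 h, 312, 305 and 217 FPKM in WT at 24 h, 169, 167 and 164 FPKM in β8ITG-cKO at 0 h and 278, 295 and 336 FPKM in β8ITG-cKO at 24 h. It rose in β8ITG-cKO, by 0.85 on the log2 scale (SE 0.11, limma adjusted p = 0.000592), and in WT its log2 change of 0.58 (95% interval 0.06 to 1.09) had a limma adjusted p of 0.0878. Hsph1 (chr5:149616843-149637155), the HSP110 exchange factor of HSP70, measured 20.2, 13.3 and 13.3 FPKM in WT at 0 h, 29.4, 28.1 and 23.5 FPKM in WT at 24 h, 13.3, 18.3 and 15.4 FPKM in β8ITG-cKO at 0 h and 22.8, 26.7 and 32.1 FPKM in β8ITG-cKO at 24 h. It rose by 0.77 on the log2 scale (SE 0.19, limma adjusted p = 0.021) in WT, a call lost on rescaling and held in 6 of 12 alternative fits, and by 0.76 on the log2 scale (SE 0.16, limma adjusted p = 0.00572) in β8ITG-cKO.

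The inducible HSP70 genes Hspa1a (chr17:34969359-34972156) and Hspa1b (chr17:34956429-34959238) lie close together and are nearly identical in sequence, so the split of reads between them is uncertain. Hspa1a measured 17.9, 15.99 and 10.6 FPKM in WT at 0 h, 5.53, 16.5 and 17.3 FPKM in WT at 24 h, 7.0, 5.85 and 6.43 FPKM in β8ITG-cKO at 0 h and 28.4, 30.2 and 18.4 FPKM in β8ITG-cKO at 24 h. Hspa1b measured 24.1, 15.8 and 14.9 FPKM in WT at 0 h, 8.85, 18.1 and 20.3 FPKM in WT at 24 h, 7.78, 8.05 and 7.76 FPKM in β8ITG-cKO at 0 h and 26.9, 29.1 and 21.9 FPKM in β8ITG-cKO at 24 h. For both, every β8ITG-cKO library at 0 h was below every WT library at 0 h, and every β8ITG-cKO library at 24 h was above every WT library at 24 h. The WT groups overlapped, and replicate 1 of WT at 24 h was well below the other 2. In WT their log2 changes were -0.28 (95% interval -1.20 to 0.65) and -0.25 (95% interval -0.98 to 0.48). In β8ITG-cKO, Hspa1a rose by 1.82 on the log2 scale (SE 0.18, limma adjusted p = 0.000203) and Hspa1b by 1.60 on the log2 scale (SE 0.12, limma adjusted p = 5.33e-05).

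Bag3 (chr7:128523583-128546981), a co-chaperone of HSP70 in selective autophagy, measured 25.6, 17.5 and 23.2 FPKM in WT at 0 h, 23.1, 28.2 and 19.2 FPKM in WT at 24 h, 10.6, 9.16 and 10.5 FPKM in β8ITG-cKO at 0 h and 16.5, 16.97 and 20.3 FPKM in β8ITG-cKO at 24 h. In WT the 2 times overlapped, with a log2 change of 0.09 (95% interval -0.37 to 0.54), and in β8ITG-cKO Bag3 rose by 0.77 on the log2 scale (SE 0.11, limma adjusted p = 0.00123). Hspb1 (chr5:135887919-135889563), the small heat shock protein HSP27, measured 76.5, 60.8 and 45.8 FPKM in WT at 0 h, 98.05, 80.8 and 152 FPKM in WT at 24 h, 55.1, 29.1 and 38.5 FPKM in β8ITG-cKO at 0 h and 47.4, 68.9 and 55.5 FPKM in β8ITG-cKO at 24 h. Its log2 change in WT of 0.82 (95% interval 0.19 to 1.46) had a limma adjusted p of 0.0563, and in β8ITG-cKO the times overlapped. Hspb8 (chr5:116408491-116422864), the partner of BAG3, measured 5.59, 4.57 and 3.35 FPKM in WT at 0 h, 4.98, 6.41 and 7.29 FPKM in WT at 24 h, 3.17, 3.21 and 2.88 FPKM in β8ITG-cKO at 0 h and 3.62, 4.42 and 4.79 FPKM in β8ITG-cKO at 24 h. It rose in β8ITG-cKO by 0.36 on the log2 scale (SE 0.12, limma adjusted p = 0.0446), a call lost on rescaling and held in only 3 of 12 alternative fits.

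The transcription factor gene Hsf1 (chr15:76477367-76500982) measured 5.93, 5.28 and 5.07 FPKM in WT at 0 h, 8.08, 9.96 and 6.41 FPKM in WT at 24 h, 6.84, 6.22 and 6.49 FPKM in β8ITG-cKO at 0 h and 7.56, 8.27 and 8.59 FPKM in β8ITG-cKO at 24 h. It rose in β8ITG-cKO by 0.28 on the log2 scale (SE 0.10, limma adjusted p = 0.0473), a call that was lost on rescaling and held in only 3 of 12 alternative fits. In WT its log2 change of 0.49 had a limma adjusted p of 0.0705. The cytosolic J proteins, co-chaperones that deliver clients to HSP70, passed in no comparison: Dnaja1 lay between 14.99 and 28.1 FPKM, Dnajb1 between 7.70 and 12.1 and Dnajb4 between 5.72 and 13.6. In all, 5 of the 15 heat shock members rose in WT, beside 20.9% of all genes, and 9 in β8ITG-cKO, beside 35.4%.

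The 0 h comparison asks how the genotypes differed right after fiber cell removal. Of 38 members tested, 9 were higher in β8ITG-cKO, beside 4.18% of all genes, and 7 were lower, beside 2.75%. The remaining members, Trib3 and Chac1, were under the filter of a mean of 0.5 FPKM. The 9 higher were all ER members and the 7 lower were 3 heat shock, 1 ER and 3 integrated stress members. In 17 members every β8ITG-cKO library lay above every WT library, beside 18.0% of all genes, and in 9 every one lay below, beside 12.8%. With the study's criteria added, 2 were higher (Calr and Sdf2l1) and 5 lower, beside 2.52% of all genes in either direction. The count of 16 was 7 without WT 0 h replicate 1, 10 without WT 0 h replicate 3, 5 without β8ITG-cKO 0 h replicate 2, 3 without β8ITG-cKO 0 h replicate 3 and 8 with the replicate number as a block.

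The ER members that were higher were chaperones and isomerases. Sdf2l1 was higher by 1.37 on the log2 scale (SE 0.14, limma adjusted p = 0.00312), Calr by 1.04 on the log2 scale (SE 0.12, limma adjusted p = 0.00562), Pdia4 by 0.82 on the log2 scale (SE 0.12, limma adjusted p = 0.0134) and Pdia6 by 0.72 on the log2 scale (SE 0.15, limma adjusted p = 0.0321). The other 5 had log2 differences of 0.57 for Hsp90b1, 0.64 for Hspa5 and Manf, 0.65 for Creld2 and 0.68 for Pdia3. No transcription factor of this arm differed past the test, with log2 differences of -0.05 (95% interval -0.37 to 0.28) for Xbp1 and 0.04 (95% interval -0.31 to 0.40) for Atf6.

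The members that were lower were led by Atf3, with a log2 difference of -4.30 (SE 0.49, limma adjusted p = 0.00457), and Ppp1r15a, with a log2 difference of -1.69 (SE 0.27, limma adjusted p = 0.0168). The ratio of Atf3 means was 124 in favour of WT, and the fitted difference was -4.30 with a pseudocount of 1 and -6.22 with 0.1. Hspa1b had a log2 difference of -1.09 (SE 0.17, limma adjusted p = 0.0167), Hspa1a a log2 difference of -1.07 (SE 0.18, limma adjusted p = 0.0201) and Bag3 a log2 difference of -1.04 (SE 0.15, limma adjusted p = 0.0119). Dnajb9 had a log2 difference of -0.66 (SE 0.13, limma adjusted p = 0.0292) and Atf4 a log2 difference of -0.59 (SE 0.13, limma adjusted p = 0.0397). Calr, Sdf2l1 and Atf3 passed under all 12 alternatives tried, and the other 13 each lost the call under at least 2 of them. Of the 12, the call held in 10 for Pdia4 and Bag3, 9 for Ppp1r15a and Hspa1b, 8 for Pdia3 and 7 for Hspa1a. It held in 6 for Manf and Pdia6, 5 for Hspa5 and Hsp90b1, 4 for Dnajb9 and Atf4 and 3 for Creld2.

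Immediate early genes, which are switched on within minutes of handling or injury, were read beside these stress genes. The summed FPKM of Fos, Fosb, Jun, Junb, Egr1, Ier2 and Dusp1 was 75.8 to 300 in WT at 0 h and 28.3 to 32.4 in β8ITG-cKO at 0 h, and 4 of the 7 were lower in β8ITG-cKO past the test, with none at 0. Fos measured 83.6, 29.6 and 14.02 FPKM in WT at 0 h, 10.2, 61.7 and 31.7 FPKM in WT at 24 h, 1.08, 1.09 and 1.37 FPKM in β8ITG-cKO at 0 h and 20.2, 20.3 and 18.3 FPKM in β8ITG-cKO at 24 h. At 24 h the sum was 159 to 391 in WT and 209 to 240 in β8ITG-cKO, 1 of the 7 rose in WT and 6 in β8ITG-cKO. Over time in WT the median log2 change of the 7 was 1.02, while that of Atf3 was -1.51 and that of Ppp1r15a -0.56. In WT at 0 h, replicate 1 had the highest value of all 7 and replicate 3 the lowest of 6. Of the 7 members lower in β8ITG-cKO at 0 h, this order was also seen for Atf3, Ppp1r15a, Hspa1a, Hspa1b and Atf4, but not for Bag3 and Dnajb9. It was not particular to the lower members, since Hspa8 and Hsf1, which were not lower, also had it. Among the 15 heat shock members, replicate 1 was highest in 11 and replicate 3 lowest in 14. The part of the immediate early genes in the 0 h difference was not tested.

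**Figure D4:**
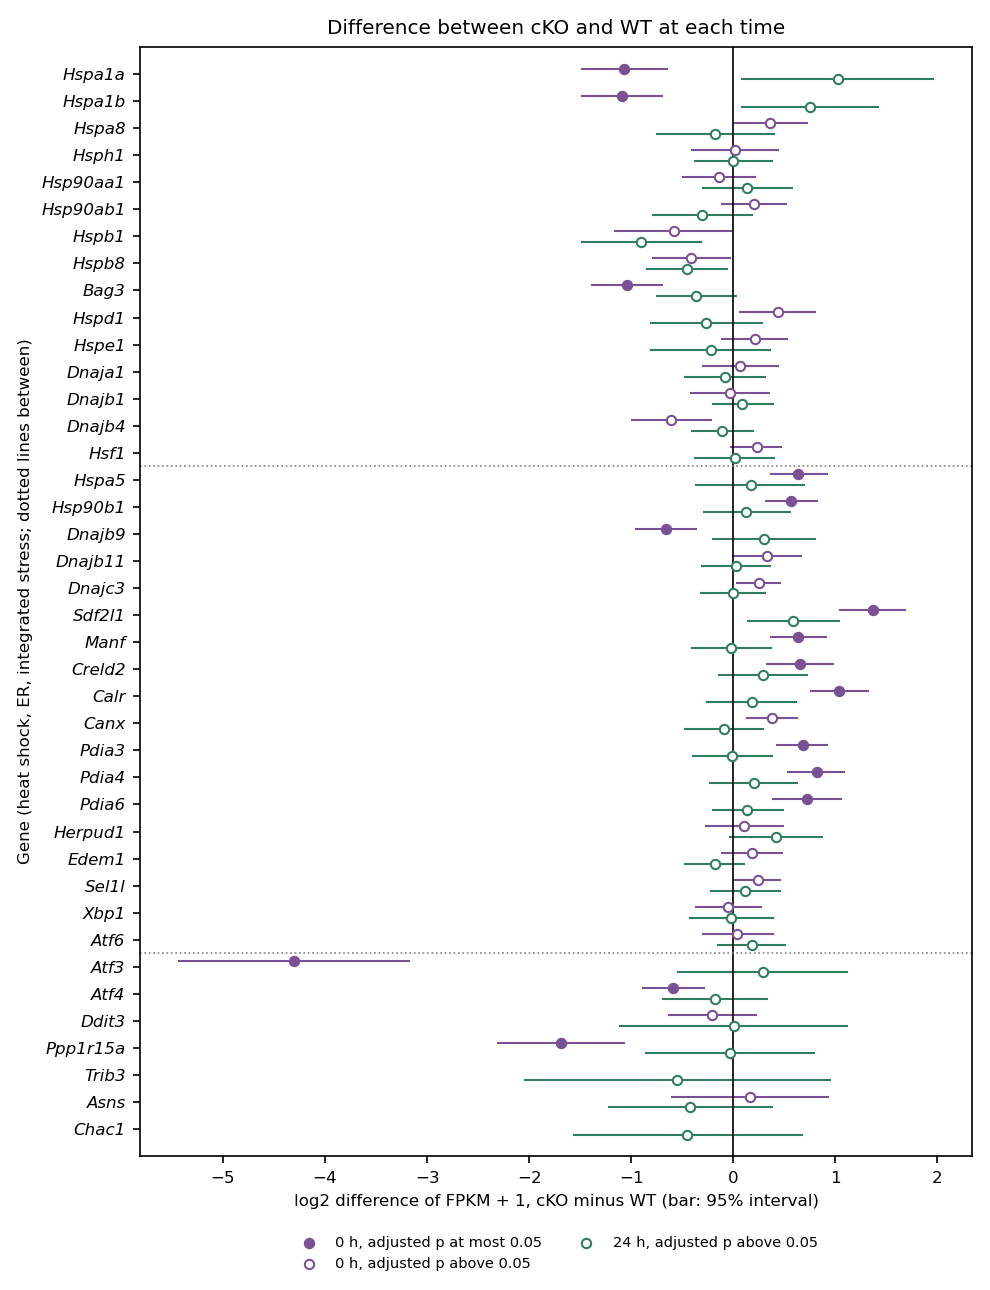
Log2 difference of FPKM + 1 between β8ITG-cKO and WT (horizontal axis) for each gene (vertical axis), at 0 h (purple) and 24 h (green), with 95% intervals; filled points had an adjusted p of at most 0.05. At 0 h, 9 filled points of ER members lie to the right and 7 filled points, with Atf3 farthest, lie to the left. No 24 h point is filled, and Trib3 and Chac1 have no 0 h point.

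At 24 h PCS no member differed between the genotypes past the test by limma, beside 5.64% of all genes that were higher and 0.644% that were lower in β8ITG-cKO. At an unadjusted p under 0.05 there were 5, Hspa1a, Hspa1b and Sdf2l1 with higher and Hspb1 and Hspb8 with lower levels in β8ITG-cKO. A single fit over all groups called 1, Sdf2l1 (log2 difference 0.59, limma adjusted p = 0.0463). The study's criteria called none, beside 3.66% of all genes. In 3 members every β8ITG-cKO library lay above every WT library (Hspa1a, Hspa1b and Sdf2l1), beside 17.5% of all genes, and in 3 every one lay below (Hspb1, Hspb8 and Edem1), beside 9.0%.

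The 95% interval of the log2 difference ran from 0.08 to 1.97 for Hspa1a, from -1.49 to -0.31 for Hspb1 and from -1.12 to 1.13 for Ddit3, but only from -0.41 to 0.38 for Manf and from -0.40 to 0.39 for Pdia3. The median difference over the 40 members was 0.00, against 0.03 over all genes. All 10 retina genes were higher in β8ITG-cKO at 24 h. The summed FPKM of 8 neutrophil markers was 12 to 34.7 there and 45.5 to 64.4 in WT, with 3 of the 8, Elane, Mpo and Ly6g, at 0 in both, and at most 1.41 in either genotype at 0 h. Their part in the 24 h values was not tested.

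The difference between the genotypes' changes over time was tested as an interaction over all 12 libraries, which uses the same 0 h libraries as the comparison above. Of the 40 members, 4 had a more positive change in β8ITG-cKO, beside 6.83% of all genes, and 2 a less positive one, beside 2.56%. The former were Atf3, at 4.59 on the log2 scale (SE 0.69, limma adjusted p = 0.00537), Hspa1a, at 2.09 on the log2 scale (SE 0.49, limma adjusted p = 0.0231), Hspa1b, at 1.85 on the log2 scale (SE 0.37, limma adjusted p = 0.0119), and Dnajb9, at 0.96 on the log2 scale (SE 0.27, limma adjusted p = 0.0442). The latter were Calr, at -0.86 on the log2 scale (SE 0.22, limma adjusted p = 0.0317), and Pdia3, at -0.68 on the log2 scale (SE 0.20, limma adjusted p = 0.0499). Atf3 and Hspa1b passed under all 17 alternatives tried, while the count fell to 2 without WT 0 h replicate 1 or without β8ITG-cKO 0 h replicate 2 or 3, to 3 without WT 24 h replicate 1 or β8ITG-cKO 24 h replicate 2, and to 3 with the replicate block, which lost Calr, Dnajb9 and Pdia3. In the ER arm 14 of 18 members had a less positive change in β8ITG-cKO whether or not they passed, with a median of -0.40 against 0.00 over all genes. Of these only Calr and Pdia3 passed the test. The change over time of Ppp1r15a was more positive in β8ITG-cKO by 1.66 (95% interval 0.58 to 2.75), which did not pass (limma adjusted p = 0.0587).

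Within groups, the libraries were ordered differently for the 3 arms. In β8ITG-cKO at 24 h, replicate 1 had the highest value of all 7 integrated stress members and of 12 of 18 ER members, but the lowest of 12 of 15 heat shock members. Replicate 2 of that group had the lowest value of all 18 ER members, and replicate 3 had the lowest of all 7 integrated stress members and the highest of 11 of 15 heat shock members. In WT at 24 h, replicate 2 was highest for all 7 integrated stress members and replicate 1 lowest for 6 of them, and the same replicates were highest and lowest for all 7 immediate early genes. In WT at 0 h, replicate 3 had the lowest value of 14 of 15 heat shock members. The median coefficient of variation within a group was 8.46% to 17.8% for the ER members, 8.93% to 20.8% for the heat shock members and 33.2% to 61.1% for the integrated stress members.

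Related genes outside the 40 were read from 4 further lists, whose counts stand beside 20.9% of all genes that rose and 8.81% that fell in WT, and 35.4% and 10.7% in β8ITG-cKO. Of 14 subunits of the cytosolic chaperonin and prefoldin, which fold actin and tubulin, 10 rose in WT and none fell, with a median log2 change of 0.80, led by Pfdn4 (1.20), Cct4 (1.05) and Cct3 (0.99). In β8ITG-cKO 7 rose and 2, Pfdn2 and Pfdn5, fell, with a median of 0.38. Of 39 related ER genes tested in WT, 20 rose and 1 fell, with a median of 0.61. The largest rises were those of Hyou1 (1.32), an ER HSP70 relative, Wfs1 (1.17) and P4hb (1.16), the gene of protein disulfide isomerase, and the fall was that of Crebrf (-0.94). In β8ITG-cKO 20 of 40 rose and 2, Mbtps1 and Rcn1, fell, with a median of 0.41.

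Of 38 related integrated stress genes in WT, 25 rose and 2 fell, with a median of 0.97. Mthfd2, a mitochondrial folate enzyme, rose by 2.73, Eif4ebp1, a translation repressor, by 2.07 and Gars, glycyl-tRNA synthetase, by 1.71, while the log2 changes of Ddit4 and Phgdh were -1.43 and -0.58. In β8ITG-cKO 24 of 37 rose and 4, Slc7a11, Slc3a2, Psat1 and Phgdh, fell, with a median of 0.60. Of 39 related heat shock genes, 13 rose and 3 fell in WT and 13 rose and 4, Hsf4, Hspa2, Hspb2 and Ubb, fell in β8ITG-cKO, with medians of 0.22 and 0.24 against 0.16 and 0.23 over all genes, and shares in β8ITG-cKO near those of all genes. Hspa9, the mitochondrial HSP70, rose in WT by 1.06, Hspbp1 by 1.02 and Chordc1 by 1.01, while Hsf4, the heat shock factor of the lens, had a log2 change of -1.53, Hspb2 of -1.09 and Hspa12a of -0.87.

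Between genotypes, calls in these lists stand beside 4.18% of all genes higher and 2.75% lower at 0 h, and 5.64% and 0.644% at 24 h, and nothing is read from them about the lists. At 0 h the genes higher in β8ITG-cKO were 3 related heat shock genes (Serpinh1, Chordc1 and Hspa2), 3 related ER genes (Dnajc10, Hyou1 and Uggt1) and 2 related integrated stress genes (Slc7a11 and Psat1), and 1, Cebpb, was lower. At 24 h Hspb6 and Hspa12a were higher and none was lower in the 4 lists. These names, and those of the genes that fell in β8ITG-cKO, were chosen after their values were seen.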

How the data were processed

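LC RNA from 12 libraries, 3 for each genotype and time, was made into libraries with the SMARTer Stranded Total RNA-Seq Pico kit. The submitters' processing notes name FastQC, cutadapt 1.12, TopHat2 2.1.0, Cuffdiff 2.2.1 and the builds mm10 and GRCm38.p5. The deposited values are FPKM per gene and library, computed by the authors with Cuffdiff. Columns with the authors' own fold changes, p-values and q-values were not used, nor were 16 columns of group values.

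Here, log2(FPKM + 1) was fitted with limma 3.58.1 (limma-trend, R 4.3.3) over every gene whose mean across the libraries compared was 0.5 FPKM or more, and p-values were adjusted by Benjamini-Hochberg over all genes tested, with 0.05 as the threshold. Each comparison was fitted on its own 6 libraries, and the interaction on all 12. The comparisons share libraries: each group enters one comparison over time and one between genotypes. The fit was tested on simulated data in which 200 genes were changed 3-fold. It recovered 74% of them in WT over time and 86.5% in β8ITG-cKO over time. Between genotypes it recovered 82.5% at 0 h and 67% at 24 h, and for the interaction 61%, so true changes can be missed. Intervals are 95%. Tables were handled in Python 3.11.15 with pandas 2.3.3, and figures drawn with matplotlib 3.10.9.

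The 40 members and all gene lists were chosen with earlier results of these data known. Values in every library are given for members past the test in any comparison and for those with the 8 largest absolute changes in each. Of the related lists, at most the 3 largest rises and falls in WT are named. Loci are those of the deposited tables (mm10), counted from 1, and 21 of the 40 equal the RefSeq gene span, while the others are wider or differ. Of the listed related and marker genes, 6 were not in the tables. Alternatives were another pseudocount, rescaling to the same median, other filters on low values, the study's criteria, a block for the replicate number, 1 fit over all groups and leaving out each library. Depth is unknown in FPKM, so no counting interval is given.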

Additional observations from a re-analysis of the deposited data

Results flagged for a closer look

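For 6 members the change from 0 h to 24 h PCS differed between the genotypes by the interaction test in limma. The β8ITG-cKO change minus the WT change was 4.59 for Atf3, 2.09 for Hspa1a, 1.85 for Hspa1b, 0.96 for Dnajb9, -0.86 for Calr and -0.68 for Pdia3 on the log2 scale. The calls of Atf3 and Hspa1b held in all 17 alternative fits. Those of the other members held in 11 for Hspa1a, 6 for Calr, 4 for Dnajb9 and 3 for Pdia3. All 6 also passed the test between the genotypes at 0 h, and the same 0 h libraries enter both tests. None passed at 24 h, which does not mean that the levels were equal. The log2 differences at 24 h were 1.03 (95% interval 0.08 to 1.97) for Hspa1a and 0.75 (95% interval 0.08 to 1.43) for Hspa1b. They were 0.30 for Dnajb9, 0.29 for Atf3, 0.18 for Calr and -0.01 for Pdia3, with intervals that held 0.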

How the results depend on the processing

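No result reversed under any alternative. In WT over time, 16 to 28 members passed (22 as reported), and 15 of the 22 passed in all 12 alternatives on adjusted p. In β8ITG-cKO over time, 22 to 29 passed under those alternatives and 14 with the study's criteria added, against 29 as reported, and 20 of the 29 passed in all 12. At 24 h between genotypes, 1 passed in 1 fit over all groups and none otherwise. At 0 h between genotypes, where 16 passed as reported, 7 did with the study's criteria, 5 with no filter on low values and 8 with the replicate block. Leaving out 1 library gave 3 to 13: 7 without WT 0 h replicate 1, 10 without replicate 3, 5 without β8ITG-cKO 0 h replicate 2 and 3 without replicate 3. For the interaction, where 6 passed, 2 did with no filter, 3 with the replicate block and 2 to 8 with 1 library left out, the fewest without WT 0 h replicate 1 or β8ITG-cKO 0 h replicate 2 or 3. Same-numbered libraries correlated at -0.218 to 0.081 in their deviations from the group means, and differently numbered ones at -0.183 to 0.153. With 3 libraries a group, these values cannot tell whether the numbers pair the samples. With the block, the count was 25 in WT and 26 in β8ITG-cKO over time. Over all genes at 0 h, 615 were higher and 405 lower as reported, 138 and 131 with the block, 161 and 93 with no filter and 198 and 173 with the study's criteria. At 24 h these were 867 and 99 as reported, 1295 and 347 in 1 fit over all groups, 770 and 226 after rescaling and 601 and 43 with the block. The cause was not tested.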
